A study of Rattus norvegicus with 8 samples.

Results

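The genes described here are 10 genes that mark lipid-associated macrophages, namely Spp1, Trem2, Gpnmb, Cd9, Lpl, Fabp5, Lgals3, Cd63, Cd36 and Fabp4. They were chosen by symbol among the 32754 genes of the count matrices, each symbol matched 1 gene, and all 10 passed the filter on low counts in the comparisons of whole libraries. Immune cells had been isolated from the livers of 4 male Han Wistar rats by filtering, lysis of erythrocytes and a density gradient. NC1 and NC2 had been fed the choline-sufficient, amino acid-defined diet (CSAA), and PC1 and PC2 the choline-deficient counterpart (CDAA), which causes fatty liver disease. Cells of each rat were run on the Chromium 3′ v2 system fresh and again after 3 weeks of cryopreservation in DMSO, which gave 8 libraries. No rat carried a transgene or an allele given in the labels, and their age is not given there. The stored cells were processed later than the fresh cells, so preservation and the day of processing cannot be told apart. Here a barcode names the droplet a transcript came from, and a unique molecular identifier (UMI) names the single molecule. Levels are given as CPM, the UMIs of a gene scaled to a total of 1000000 UMIs per library or gate.

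Libraries held 18338700 to 26471843 UMIs in total. Barcodes with at least 500 UMIs were taken as cells, 3673 to 4771 per library. Their median depth was 3339 to 3713 UMIs in CSAA and 4057 to 4309 UMIs in CDAA libraries. Any 2 libraries had 13 to 36 of these barcodes in common. Rats were the replicates, with 2 per diet, and libraries of 1 rat are not independent samples of a diet.

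Lipid-associated macrophages are macrophages that take up lipids and cell debris in fatty tissue, in the fatty liver, in atherosclerotic plaques and, as microglia, in the brain. Trem2 is a surface receptor for lipids and lipoproteins that signals through the adaptor Tyrobp, and much of the program depends on it in mice. Spp1 encodes osteopontin, a secreted ligand of Cd44 and of several integrins. Lpl releases fatty acids from triglycerides, Cd36 takes up fatty acids and oxidised lipoproteins, and Fabp4 and Fabp5 carry fatty acids in the cytosol. Gpnmb is a glycoprotein of lysosomes and the cell surface, Cd63 and Cd9 are tetraspanins, and Lgals3 is a lectin that binds damaged lysosomes. Kupffer cells, which express the lectin Clec4f, are the resident macrophages of the liver, and monocytes can enter the liver and become macrophages.

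Promoter sequences of 6 of the 10 genes were in the RefSeq table used here (Spp1, Trem2, Gpnmb, Cd9, Cd63 and Cd36), on the rat build GRCr8, which is not the Rnor6.0 build of the counts. Those of the ligand Spp1, of the receptor Trem2 and of the lysosomal genes Gpnmb and Cd63 are shown as those of the genes with a promoter in the table that were called between diets below. Each runs 5′ to 3′ on the strand of the gene, from 250 bases before to 50 after 1 annotated start. The windows of Spp1 and Cd63 lie inside the spans given for these genes, chr14:5613569-5620695 and chr7:1909538-1924937. Starts at the outer 5′ edge of these spans were therefore not covered. Spp1 lies on the minus strand at chr14:5619755-5620054, Trem2 on the minus strand at chr9:20151730-20152029, Gpnmb on the plus strand at chr4:79340878-79341177 and Cd63 on the plus strand at chr7:1921894-1922193. Capitals mark matches, on either strand, to the E-box CACGTG, the AP-1 site TGACTCA, the Ets core GAGGAA and a repeat of the nuclear receptor half-site AGGTCA with 1 base between the copies.
Spp1: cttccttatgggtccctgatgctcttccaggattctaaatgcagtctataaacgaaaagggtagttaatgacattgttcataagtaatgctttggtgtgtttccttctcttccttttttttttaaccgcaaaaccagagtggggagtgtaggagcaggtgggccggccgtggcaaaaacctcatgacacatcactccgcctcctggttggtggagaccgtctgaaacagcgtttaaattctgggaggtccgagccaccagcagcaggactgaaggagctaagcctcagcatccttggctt
Trem2: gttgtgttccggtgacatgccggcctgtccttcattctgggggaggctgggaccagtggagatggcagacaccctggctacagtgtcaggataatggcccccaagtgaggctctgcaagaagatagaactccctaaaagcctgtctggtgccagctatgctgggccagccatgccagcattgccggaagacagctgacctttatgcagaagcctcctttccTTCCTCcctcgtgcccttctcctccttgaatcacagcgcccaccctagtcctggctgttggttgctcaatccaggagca
Gpnmb: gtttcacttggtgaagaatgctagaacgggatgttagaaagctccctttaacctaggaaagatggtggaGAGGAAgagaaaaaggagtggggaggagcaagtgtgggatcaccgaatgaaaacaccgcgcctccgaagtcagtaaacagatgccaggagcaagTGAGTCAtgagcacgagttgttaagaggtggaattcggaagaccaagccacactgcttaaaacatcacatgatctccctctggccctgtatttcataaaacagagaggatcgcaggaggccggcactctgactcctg
Cd63: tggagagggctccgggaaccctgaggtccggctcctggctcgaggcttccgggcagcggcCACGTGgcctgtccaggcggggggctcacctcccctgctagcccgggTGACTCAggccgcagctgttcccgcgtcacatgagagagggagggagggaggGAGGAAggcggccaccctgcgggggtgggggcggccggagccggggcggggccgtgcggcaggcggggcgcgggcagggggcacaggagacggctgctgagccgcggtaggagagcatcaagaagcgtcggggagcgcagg
The AP-1 letters were found in the promoters of Gpnmb and Cd63 and in 4.63% of all 33469 promoters of the table. Cd63 held the E-box, which was in 6.42% of all promoters, and the Ets core was in 5 of the 6 promoters and in 27.6% of all. The promoter of Spp1 held none of the 4 motifs in this window, and none of the 6 promoters held the repeat, which occurred in 0.0538% of all. These matches describe letters and not binding.

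The first question was how the genes differed between diets. In fresh cells 8 of the 10 genes were higher in CDAA rats (edgeR quasi-likelihood test, Benjamini-Hochberg adjusted p under 0.05 over all genes and at least 2-fold), against 0.722% of all 11772 genes tested. The 8 were Spp1, Trem2, Gpnmb, Lpl, Fabp5, Lgals3, Cd63 and Fabp4. The 10 genes were chosen with earlier results of these data known, so this count is not an independent test. After cryopreservation the same 8 genes were called higher, against 0.449% of 11364 genes (0.625% in either direction). The median log2 fold change of the 10 genes was 3.64 in fresh and 4.04 in cryopreserved libraries, where that of all genes was -0.02 and -0.03. The comparisons share their rats. Leaving out a CDAA rat leaves 1 library on that side, which is then assumed to vary like the CSAA libraries. Without PC2, 5 genes were called in fresh libraries. Trem2, Gpnmb and Lgals3 then missed the threshold with log2 fold changes of 3.83, 3.96 and 1.46. Without either PC1 or PC2, 3 were called in cryopreserved libraries (Spp1, Cd63 and Fabp4), and the log2 fold changes of the other 5 that had been called were then 1.82 to 4.75.

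**Figure D1:**
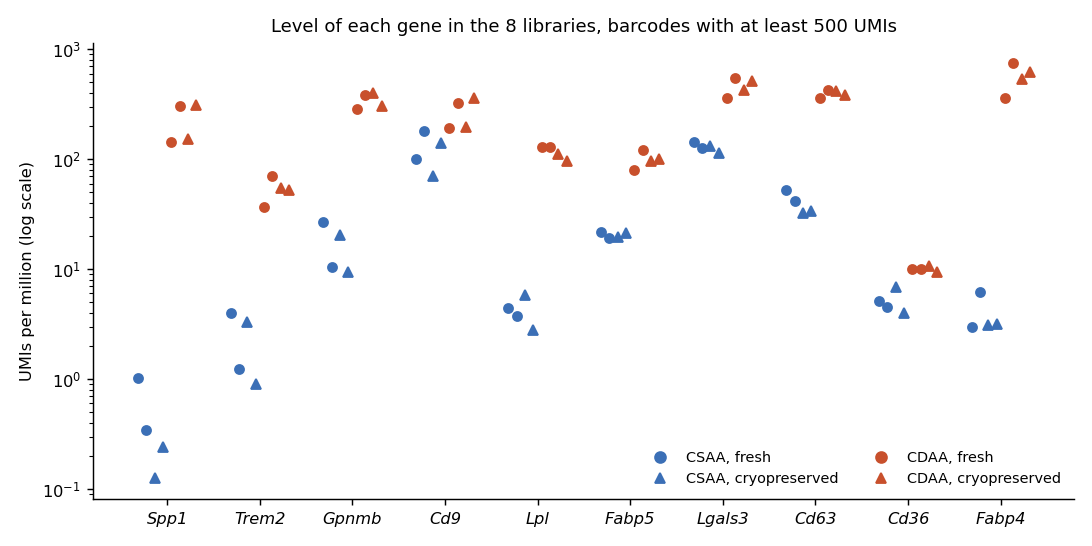
Level of each gene in CPM (vertical log axis) in the 8 libraries, 1 point each, coloured by diet, with circles for fresh and triangles for cryopreserved cells. The CDAA points lie above all CSAA points for every gene shown, and for Cd9 the nearest points are 181 in NC2 and 193 in PC1. How many other genes separate in this way was not counted.

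Of the 10 genes Spp1 had the largest fold change in both comparisons. Its level was 1.02 and 0.345 CPM in fresh cells of NC1 and NC2, and 143 and 307 in those of PC1 and PC2. After cryopreservation it was 0.125 and 0.239 in the CSAA rats and 152 and 313 in the CDAA rats. Thus each CDAA library was far above each CSAA library, and PC2 was above PC1 both times. The log2 fold change was 8.36 ± 0.59 (SE, n = 2 rats per diet, edgeR adjusted p = 0.0196) in fresh and 10.21 ± 0.54 (adjusted p = 0.00199) in cryopreserved cells. The CSAA side of these ratios rests on few molecules, 29 UMIs in the fresh and 6 in the cryopreserved libraries, against 10623 and 10406 in CDAA libraries. Spp1 passed the filter on low counts through its CDAA libraries. Pooled over rats, the fold was 327 (exact 95% interval 228 to 489) in fresh and 1269 (583 to 3459) in cryopreserved cells, intervals that cover counting error only.

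Trem2 followed at lower levels. It was counted at 3.99 and 1.23 CPM in fresh cells of NC1 and NC2 and at 36.8 and 70.5 in those of PC1 and PC2. After cryopreservation the levels were 3.32 and 0.897 in CSAA and 54.3 and 53.0 in CDAA rats. The groups did not overlap, and NC1 was above NC2 both times. The log2 fold change was 4.37 ± 0.55 (edgeR adjusted p = 0.0388) in fresh and 4.65 ± 0.44 (adjusted p = 0.0191) in cryopreserved cells. Without PC2 the log2 fold change of Trem2 was 3.83 in fresh (edgeR adjusted p = 0.0798) and 4.71 in cryopreserved cells (adjusted p = 0.296), and without PC1 it was 4.60 in cryopreserved cells (adjusted p = 0.141), each with 1 CDAA library left.

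Among the genes of lipid handling, Fabp4 differed most. Fresh cells held 2.97 and 6.21 CPM in CSAA and 358 and 743 in CDAA rats, and cryopreserved cells 3.07 and 3.17 against 534 and 617. Its log2 fold change was 6.93 ± 0.55 (edgeR adjusted p = 0.0196) in fresh and 7.48 ± 0.17 (adjusted p = 4.28e-05) in cryopreserved cells. Lpl was at 4.45 and 3.75 in CSAA and at 129 and 128 in CDAA rats before, and at 5.77 and 2.81 against 112 and 95.6 after cryopreservation. The PC1 and PC2 values of Lpl lay close together, and its log2 fold change in fresh cells was 4.99 ± 0.14 (edgeR adjusted p = 0.000451). Fabp5 rose less, from 21.7 and 19.3 to 78.9 and 120 in fresh cells and from 19.4 and 21.5 to 95.5 and 101 in cryopreserved cells. This was a log2 fold change of 2.30 ± 0.22 in fresh cells (edgeR adjusted p = 0.0226). Cd36, the scavenger receptor, was low in every library, with 4.01 to 6.83 CPM in CSAA and 9.32 to 10.7 in CDAA rats. The ranges of Cd36 did not overlap, but its difference of 1.07 ± 0.18 on the log2 scale in fresh cells was not called (edgeR adjusted p = 0.0609).

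Of the lysosomal and membrane genes, Gpnmb was at 26.6 and 10.5 CPM in fresh cells of CSAA rats and at 284 and 383 in those of CDAA rats. Its cryopreserved values were 20.5 and 9.51 against 396 and 302. The log2 fold change was 4.19 ± 0.45 (edgeR adjusted p = 0.0261) in fresh cells, with NC1 above NC2 in both states. Cd63 stood at 52.0 and 42.0 against 363 and 428 in fresh and at 32.5 and 34.0 against 421 and 380 in cryopreserved cells. For Cd63 the rats of a diet lay close together, and the log2 fold change was 3.09 ± 0.16 (edgeR adjusted p = 0.00799). Lgals3 was well detected on both diets, at 142 and 126 against 363 and 543 in fresh and at 132 and 114 against 428 and 513 in cryopreserved cells. It rose by 1.78 ± 0.21 on the log2 scale in fresh cells (edgeR adjusted p = 0.0337). Cd9 differed least from its CSAA levels of 101 and 181, with 193 and 325 in fresh cells of CDAA rats, and with 70.9 and 139 against 196 and 362 after cryopreservation. The spread between rats of 1 diet was wide for Cd9, and its log2 difference of 0.89 ± 0.35 in fresh cells was not called (edgeR adjusted p = 0.242), nor was that of 1.35 ± 0.39 in cryopreserved cells (adjusted p = 0.208).

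**Figure D2:**
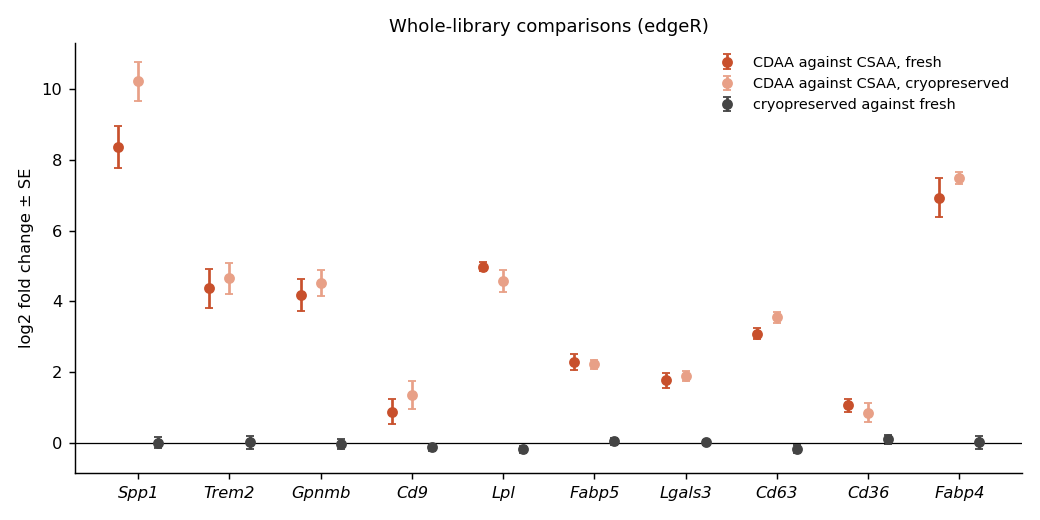
Log2 fold change with its SE (vertical axis) for the 10 genes in the comparisons of diets in fresh and cryopreserved libraries and in the comparison of cryopreserved with fresh libraries. Diet values run from 0.86 to 10.21, whereas those of preservation lie between -0.18 and 0.11.

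A higher level in a whole library can come from more cells of a kind or from more of the transcript per cell, which these sums cannot tell apart. Markers of several cell types differed between diets as well. The summed level of 10 Kupffer cell markers was 535 to 930 CPM in CSAA and 1144 to 1924 in CDAA libraries, that of 7 monocyte markers 604 to 1040 and 1100 to 1629, and that of 4 T cell markers 726 to 862 and 218 to 310. The part of these shifts in the results was not tested. Clec4f itself, the defining Kupffer marker, differed by 0.01 ± 0.38 on the log2 scale in fresh cells (edgeR adjusted p = 0.989). Bile duct cells also express Spp1, and their 6 markers summed to 4.01 to 7.35 CPM in CSAA and 3.67 to 4.29 in CDAA libraries. Of these, Sox9 had 0 UMIs in all libraries and Krt19 had 2 UMIs in fresh cells of NC1 and 0 elsewhere. Ptprc, which all leukocytes express, ranged from 348 to 440 in CSAA and from 367 to 498 in CDAA libraries. Hepatocyte markers summed to 22.0 CPM and stellate or fibroblast markers to 1.05 CPM at most, and endothelial markers to 114 to 202 CPM in CSAA and 80.3 to 130 CPM in CDAA libraries. Neutrophil markers summed to 194 to 523 CPM in CSAA and 358 to 783 CPM in CDAA libraries. They share S100a8 and S100a9 with the monocyte markers, so these sums are not independent.

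Cryopreservation was compared with fresh cells of the same rat. None of the 10 genes was called (edgeR with the rat as a block), where 0.800% of 11505 genes were called in either direction. By an unadjusted p under 0.05 the number was 0 as well, and DESeq2 called 0. Log2 fold changes ranged from -0.18 to 0.11, with SEs of 0.07 to 0.18, and the smallest adjusted p was 0.343. Spp1 changed by 0.02 ± 0.15 (edgeR adjusted p = 0.959) and Trem2 by 0.03 ± 0.18 (adjusted p = 0.949), values whose sign turned in other analyses. Within rats, Trem2 was higher after cryopreservation in PC1 and lower in the other 3.

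A test of whether the change with cryopreservation differed between diets called none of the 10 genes (edgeR), against 0.0329% of 12163 genes. The share of all genes at the looser limit of an unadjusted p under 0.05 was not counted, and 3 of the 10 passed it. They were Spp1 with an interaction of 1.88 ± 0.53 on the log2 scale (edgeR adjusted p = 0.574), Cd9 with 0.51 ± 0.10 (adjusted p = 0.249) and Cd63 with 0.49 ± 0.18 (adjusted p = 0.722). For Spp1 this rests on the 29 and 6 UMIs of the CSAA libraries given above.

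Next, the distribution over single barcodes was examined. In CDAA libraries most barcodes with Spp1 had 1 UMI of it, and a few had far more. In fresh cells of PC1, 900 barcodes had 1 UMI, 230 had 2 to 9 and 30 had 10 or more, with a maximum of 347. In PC2 these numbers were 1218, 665 and 52, with a maximum of 554. Cryopreserved cells gave 815, 235 and 46 for PC1, and 1244, 580 and 46 for PC2, with maxima of 276 and 356. No CSAA barcode had more than 5 Spp1 UMIs. The 1% of barcodes with the most UMIs of a gene held 55.2% to 61.5% of the Spp1 UMIs of CDAA libraries, 44.4% to 52.6% of those of Trem2, 47.0% to 57.1% of those of Fabp4 and 39.8% to 48.9% of those of Gpnmb. For Cd9 this share was 11.2% to 15.6% and for Lgals3 18.7% to 23.8%, so the UMIs of both were spread over more barcodes.

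**Figure D3:**
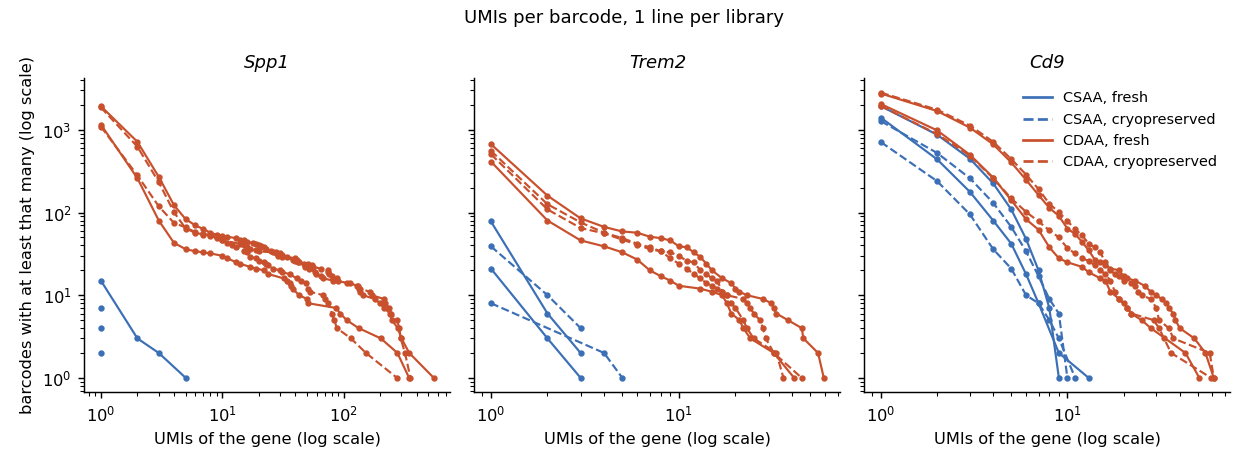
Number of barcodes with at least a given number of UMIs of Spp1, Trem2 or Cd9 (both axes log), 1 line per library, solid for fresh and dashed for cryopreserved cells. Spp1 of CDAA libraries falls steeply at low UMI numbers and more gently after that, to a maximum of 276 to 554, while CSAA libraries end at 5 or below.

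The barcodes with at least 10 Spp1 UMIs were then described, a limit set after the counts had been seen, so that no test was made. They were 30 and 52 of the fresh and 46 and 46 of the cryopreserved barcodes of PC1 and PC2, or 0.693% to 1.13% of barcodes. They carried 56.0% to 61.8% of all Spp1 UMIs with 2.25% to 4.47% of all UMIs. These barcodes were deep, with medians of 14108 to 19111 UMIs against 4031 to 4289 in the remaining barcodes. Just below the limit, 6, 31, 20 and 18 barcodes had 5 to 9 Spp1 UMIs in the same order.

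The other 9 genes were all higher in these barcodes than in the remaining ones of the same library, in 4 of 4 CDAA libraries. How many of all genes were higher in this way was not counted, so this is a description. Trem2 was 11.7-fold to 17.4-fold higher than in the remaining barcodes, at 445 to 627 CPM. Fabp4 reached 4723 to 7852 CPM and Gpnmb 2915 to 3520. Cd63 was at 2440 to 2982, Lgals3 at 1655 to 2497, Lpl at 712 to 799, Fabp5 at 564 to 748 and Cd9 at 533 to 742. Even here Cd36 stayed at 42.5 to 60.2. Ranked by the lowest fold of the 4 libraries, the first gene outside the list was Mmp12, an elastase of macrophages, at 13.6-fold to 20.9-fold. Cela1 (10.9-fold to 20.7-fold), Kazald1 (10.0-fold to 26.5-fold) and Selm (9.57-fold to 12.8-fold) came next. Apoe, the lipoprotein ligand of Trem2, followed at 9.20-fold to 20.4-fold. Further down, with other genes between, the lysosomal protease Ctsd was 7.67-fold to 10.5-fold and the receptor tyrosine kinase Axl 8.29-fold to 11.1-fold higher. The complement gene C1qa, which macrophages express, was 4.26-fold to 7.13-fold higher. Cd79a, of B cells, was at 1.86 to 21.0 CPM in them, below the remaining barcodes in all 4 libraries.

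Most of these barcodes could not be placed in a lineage by 1 gene. A barcode was put in a gate when it held UMIs of only 1 of Clec4f (Kupffer cells), Clec4a3 (nonclassical monocytes), Vcan (monocytes), Siglech (plasmacytoid dendritic cells), Cd79a (B cells), Cd3e (T cells) and Ncr1 (NK cells). Several of these genes were present in 28 of 30, 45 of 52, 38 of 46 and 36 of 46 of the barcodes with at least 10 Spp1 UMIs. This was 78.3% to 93.3%, compared with 74.1% to 83.2% among the other barcodes of at least 10000 UMIs. Clec4a3 was present in 26, 44, 32 and 31 of them, Siglech in 20, 33, 26 and 26, and Clec4f in 9, 26, 19 and 6. Ncr1 was present in 5, 31, 15 and 21, Cd3e in 12, 13, 21 and 17, Vcan in 12, 16, 13 and 14, and Cd79a in 3, 2, 14 and 5. Droplets with 2 cells were not removed, and their part was not tested.

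Shares of barcodes with a UMI were read beside the RNA found outside cells. Droplets without a cell, here barcodes with at most 100 UMIs, had Spp1 at 177 and 327 CPM in fresh and 256 and 380 in cryopreserved libraries of PC1 and PC2. These levels were above those of barcodes of the B cell gene Cd79a, which should lack Spp1, at 55.1 and 122 in fresh and 71.6 and 129 in cryopreserved libraries. The share of barcodes with a Spp1 UMI was 26.8% and 42.1% in fresh cells of PC1 and PC2. In Cd79a barcodes it was 18.5% and 28.0%, at median depths of 3219 and 2717 UMIs against 4309 and 4287. Expected in 1000 UMIs of each barcode, the shares were 6.86% and 12.9% for all barcodes and 5.90% and 12.1% for Cd79a barcodes. At equal depth the share of barcodes with a Spp1 UMI was thus slightly above that of Cd79a barcodes in both rats, and it is not read as a share of expressing cells. Between 238 and 427 barcodes per CDAA library had under 1000 UMIs and were left out. In CSAA libraries the observed share was 0.314% and 0.158% in fresh and 0.0545% and 0.109% in cryopreserved cells.

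For the remaining genes the shares in 1000 UMIs differed in the same way between diets. Over the 10 genes in fresh cells, the mean share was higher in CDAA rats for all 10, and the rats of the diets did not overlap for 9, Cd9 being the exception. How many of all genes separate in this way was not counted, so these numbers are a description. The difference was 24.2 percentage points for Fabp4, 18.0 for Cd63, 17.7 for Lgals3, 13.6 for Gpnmb, 9.81 for Spp1 and 2.66 for Trem2. With 2 rats against 2, a two-sided exact permutation test cannot give a p below 0.33, which these 9 genes reached (adjusted p = 0.37 over the 10 genes). The shares after cryopreservation differed from fresh ones by 0.107 percentage points for Spp1 (exact permutation test of 16 sign changes over 4 rats, p = 0.5) and by 0.0994 for Trem2 (p = 1), where the smallest possible p is 0.125.

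**Figure D4:**
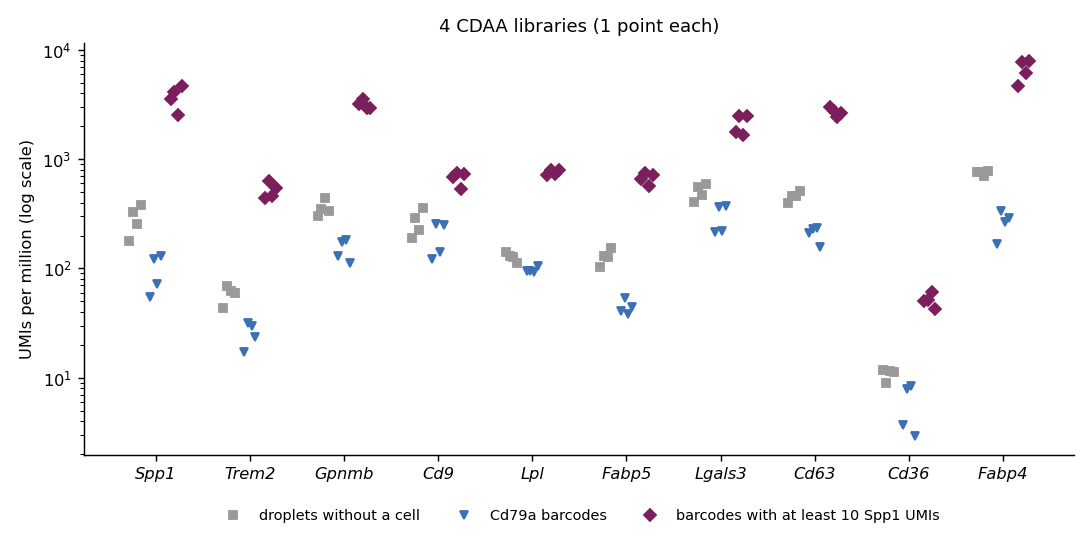
Level in CPM (vertical log axis) of the 10 genes in the 4 CDAA libraries, 1 point each, in droplets without a cell, in Cd79a barcodes and in barcodes with at least 10 Spp1 UMIs. The last group, which was chosen on Spp1, lies above both others for every gene, and droplets without a cell lie above Cd79a barcodes for every gene in each library. How many other genes lie in this order was not counted.

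The other genes showed the same background. In Cd79a barcodes of CDAA libraries, Fabp4 was at 167 to 332 CPM, Gpnmb at 111 to 184, Cd63 at 158 to 236 and Trem2 at 17.1 to 31.4. In CSAA libraries Cd79a barcodes held 0 to 4.62 of Fabp4 and 0 to 26.9 of Gpnmb. The diet comparison made within Cd79a barcodes, added after these values had been seen, called 4 of 9 genes tested higher in CDAA rats (Spp1, Lpl, Cd63 and Fabp4), against 0.117% of 5118 genes. Spp1, Lpl and Fabp4 had 1, 4 and 3 UMIs there over both fresh CSAA libraries and passed the low-count filter through CDAA libraries alone. For each UMI of Spp1 there were 2.05 to 4.27 of Fabp4 in droplets without a cell, 2.25 to 3.72 in Cd79a barcodes and 1.33 to 2.43 in barcodes with at least 10 Spp1 UMIs. Choosing the last group on its Spp1 UMIs lowers its ratio, which is therefore not compared with the others.

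When the barcodes with at least 10 Spp1 UMIs, which occurred in CDAA libraries, were left out, an analysis added after seeing the data, 8 of 10 genes were called in both fresh and cryopreserved libraries. The share of all genes called with these barcodes left out was not taken. The log2 fold change in fresh cells was then 7.12 for Spp1, 3.80 for Trem2 and 6.22 for Fabp4. The level of Spp1 in these remaining barcodes was close to that in Cd79a barcodes, with 64.4 against 55.1 CPM in PC1 and 127 against 122 CPM in PC2 when fresh. In cryopreserved cells it was 67.4 against 71.6 and 125 against 129 CPM, below the Cd79a barcodes. Hence these calls do not show that cells other than those with high Spp1 differed in Spp1 between diets. Trem2 was at 27.4 and 44.5 CPM in the remaining barcodes of fresh PC1 and PC2, above 17.1 and 31.4 in Cd79a barcodes. Lpl lay below Cd79a barcodes in cryopreserved cells of both rats. The genes other than Spp1 and Lpl lay above them in each CDAA library. How many of all genes do so was not counted, and the cells behind this were not tested.

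Levels were next compared by lineage, in gates of 23 to 78 barcodes per library for Clec4f, 83 to 392 for Clec4a3 and 33 to 154 for Vcan. In each library 58.8% to 65.0% of barcodes were in no gate. Barcodes with 1 gate gene held 15.3% to 22.4% of the Spp1 UMIs of CDAA libraries and 17.4% to 22.7% of those of Trem2. They held 29.4% to 36.1% of all UMIs there. The comparisons by lineage cover this part only. Within Clec4a3 barcodes of fresh cells, 8 of 10 genes were called higher in CDAA rats (edgeR), against 0.479% of 6268 genes. Of these, Spp1, Trem2 and Fabp4 had 0, 2 and 3 UMIs over both CSAA libraries and passed the low-count filter through CDAA libraries alone. The calls of these genes are read as descriptions. Spp1 had 0 UMIs in Clec4a3 barcodes of both fresh CSAA libraries and 111 and 153 CPM in CDAA libraries, which is at least 49.4-fold higher against a floor of 3 UMIs over both CSAA libraries. In Cd79a barcodes of the same libraries it was at 55.1 and 122. Trem2 was at 1.99 and 1.64 against 28.9 and 49.5 in Clec4a3 barcodes (log2 fold change 4.36 ± 0.67, edgeR adjusted p = 0.0222), compared with 17.1 and 31.4 in Cd79a barcodes of the CDAA libraries. Lpl was at 186 and 179 in Clec4a3 barcodes of fresh CDAA cells and 95.5 and 94.3 in Cd79a barcodes.

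Within Clec4f barcodes 2 of 8 genes tested were called, Fabp4 and Lpl, against 0.118% of 2544 genes. Fabp4 had 2 UMIs over both fresh CSAA libraries and Lpl 0, so both passed the low-count filter through CDAA libraries alone. Their calls are read as descriptions. Fabp4 was at 7.47 and 3.98 CPM in fresh CSAA and at 411 and 1443 in fresh CDAA libraries (log2 fold change 7.27 ± 0.94, edgeR adjusted p = 0.0309). In fresh PC2, 1 of the 49 Clec4f barcodes had at least 10 Spp1 UMIs, and its part in this Fabp4 level was not counted. Lpl had 0 UMIs in both fresh CSAA libraries and was at least 23.8-fold higher in fresh CDAA libraries. Cryopreserved Clec4f barcodes differed less, with Lpl at 17.7 CPM over both CSAA and 50.9 CPM over both CDAA libraries, the latter below the 93.0 and 105 CPM of Cd79a barcodes. Fabp4 was at 32.4 and 275 CPM there, against 5.20 and 965 CPM in fresh cells. In Cd79a barcodes of PC1 and PC2, Fabp4 was at 266 and 290 CPM in cryopreserved and at 167 and 332 CPM in fresh cells. The count of calls in this small gate was unstable when 1 rat was left out, where the share of all genes was not counted. Within Vcan barcodes none of 8 genes tested was called (edgeR), and 0% of 2682 genes were called higher. At an unadjusted p under 0.05, 7 of the 8 passed, a limit at which the share of all genes was not counted. The number called in Vcan barcodes changed when 1 rat was left out, where the share of all genes was not counted. In Vcan barcodes of fresh CSAA cells, Spp1 and Lpl had 0 of 248489 UMIs. In those of CDAA cells they had 105 and 69 of 941428 UMIs. Against a floor of 3 UMIs over both CSAA libraries, this was at least 9.24-fold and 6.07-fold higher. The level of Spp1 in Vcan barcodes was 1.42 and 1.08 times that in Cd79a barcodes of fresh PC1 and PC2. For Lpl it was 0.851 and 0.725 times, so below the Cd79a barcodes in both rats. The part of RNA found outside cells in these UMIs was not tested.

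**Figure D5:**
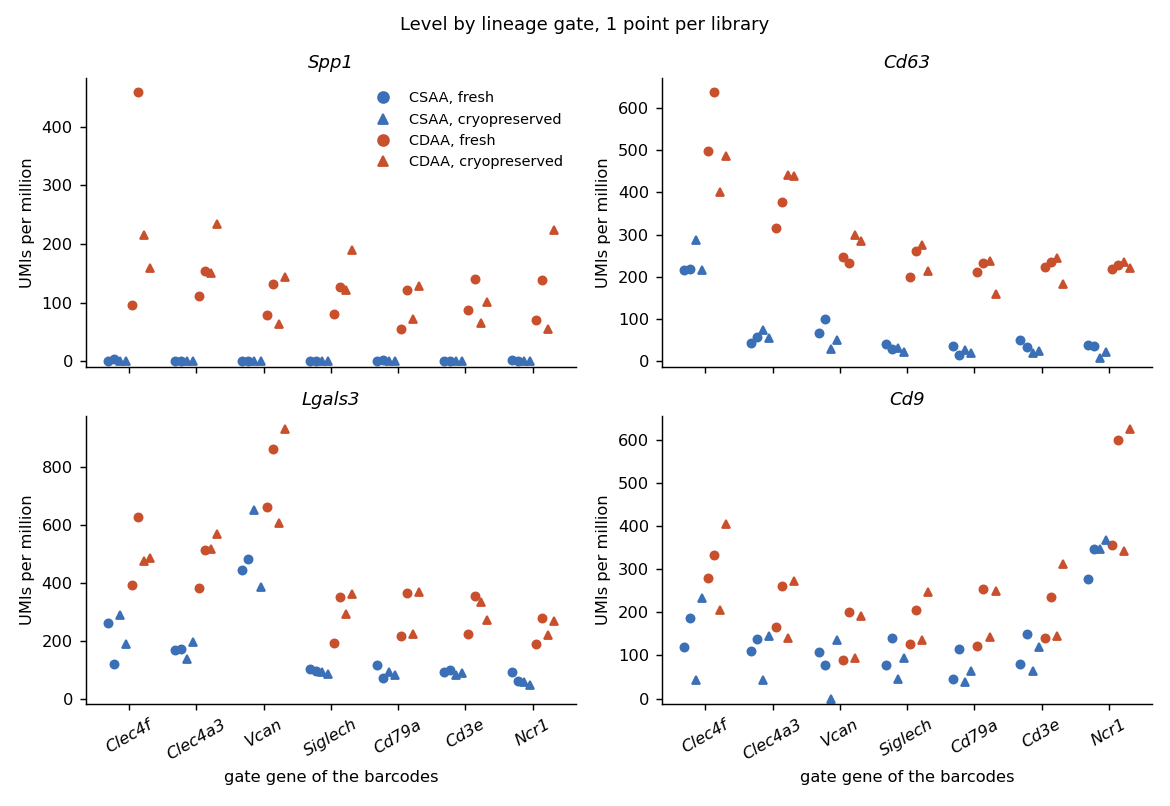
Level in CPM (vertical axes) of Spp1, Cd63, Lgals3 and Cd9 in barcodes of 7 lineage gates (horizontal axes, named by the gate gene), 1 point per library. Cd63 is highest in Clec4f barcodes of CSAA libraries, Lgals3 in Vcan barcodes and Cd9 in Ncr1 barcodes of each of the 8 libraries.

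The order of lineages differed between genes. Cd63 was highest in Clec4f barcodes in all CSAA libraries, at 215 to 287 CPM, while the other 6 gates held 6.73 to 101. In fresh cells Clec4f barcodes were higher in Cd63 than Clec4a3 barcodes by 1.14 ± 0.20 on the log2 scale (edgeR with the rat as a block, adjusted p = 0.000358) and higher than Vcan barcodes by 1.34 ± 0.23 (adjusted p = 0.000557). Lgals3 was highest in Vcan barcodes in all 8 libraries, at 386 to 652 in CSAA and 606 to 931 in CDAA rats. Clec4a3 barcodes were lower than Vcan barcodes in Lgals3 by a log2 difference of -1.12 ± 0.16 (edgeR adjusted p = 5.07e-05). The difference between Clec4f and Vcan barcodes, -0.92 ± 0.18, passed the test but not the 2-fold limit (edgeR adjusted p = 0.00253). Cd9 was highest in Ncr1 barcodes in all 8 libraries, at 278 to 368 in CSAA and 341 to 625 in CDAA rats, a comparison that was made after the values had been seen and not tested.

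Over the 9 genes tested between gates of fresh cells, 4 were called between Clec4f and Clec4a3 barcodes, against 4.38% of 3425 genes, all higher in Clec4f barcodes. They were Spp1, Fabp5, Cd63 and Fabp4. Between Clec4f and Vcan barcodes 5 were called (Spp1, Trem2, Lpl, Cd63 and Fabp4), against 3.39%. Of these, Spp1, Trem2, Lpl and Fabp4 had 1, 1, 0 and 2 UMIs in Clec4f barcodes over both fresh CSAA libraries. In Vcan barcodes they had 0, 0, 0 and 1. These 4 genes passed the low-count filter through CDAA libraries, so their calls between Clec4f and other barcodes are read as descriptions. Between Clec4a3 and Vcan barcodes 2 were called, Lpl higher and Lgals3 lower in Clec4a3 barcodes, against 3.65%. Lpl had 14 and 0 UMIs in Clec4a3 and Vcan barcodes over both fresh CSAA libraries, against 589 and 69 over both CDAA libraries. Its call rests on the CDAA libraries and is read as a description. The difference in Spp1 between Clec4f and Clec4a3 barcodes, 1.09 ± 0.26 on the log2 scale (edgeR adjusted p = 0.0077), rests on PC2, whose level was far above that of PC1. Fresh Clec4f barcodes held 96.4 CPM of Spp1 in PC1 and 459 in PC2. Of these 47 and 49 barcodes, 0 and 1 had at least 10 Spp1 UMIs. The part of this 1 barcode in the level of PC2 was not counted. Without PC2 the difference was -0.09, and 1 of the genes was called. Without NC2 the number called between Clec4a3 and Vcan barcodes was 1. In cryopreserved cells these numbers were 1, 2 and 1.

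Spp1 UMIs of CSAA libraries were looked at more closely because they were so few. Outside the barcodes taken as cells, fresh libraries of NC1 and NC2 had 27 and 22 Spp1 UMIs and cryopreserved ones 22 and 16. Between 63.6% and 72.7% of these lay in barcodes that were cells of a CDAA library, where 4.74% to 6.42% of all UMIs outside cells lay in such barcodes. In barcodes that were cells of other CSAA libraries 0 of them were found. Fabp4 behaved likewise with 52.1% to 89.0% of 38 to 118 UMIs, whereas Cd9, which is well expressed on both diets, gave 7.72% to 10.1%. Per the study's methods all libraries had been pooled and sequenced on 1 flow cell. The part of this in the CSAA counts within cells was not tested.

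Related genes were read from lists. Of the Trem2 signalling list, 1 of 9 genes tested was called higher in fresh CDAA cells, against 0.994% of all genes called in either direction. It was Apoe, at 33.0 and 12.5 CPM in CSAA and 508 and 652 in CDAA rats, a log2 fold change of 4.69 ± 0.47 (edgeR adjusted p = 0.0226). Tyrobp, the adaptor of Trem2, differed by 0.22 ± 0.11 and was not called (edgeR adjusted p = 0.331). None of the 6 osteopontin receptors tested was called by edgeR or by DESeq2. At an unadjusted p under 0.05 (edgeR), 2 of them passed, where the share of all genes was not counted. Cd44 differed by 0.50 ± 0.11 (edgeR adjusted p = 0.0927) and Itgb5 by 0.96 ± 0.26 (adjusted p = 0.133).

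The counts of the next lists stand beside 0.722% of all genes called higher in fresh and 0.449% in cryopreserved cells. In the list of lysosome and lipid breakdown genes 1 of 21 was called in fresh cells, the protease Ctsd, at 164 and 159 CPM in CSAA and 448 and 626 in CDAA rats (log2 fold change 1.76 ± 0.18, edgeR adjusted p = 0.0226). Their median was 0.47 against -0.02 over all genes. Of 9 lipid targets of nuclear receptors, 2 were called higher in fresh and in cryopreserved cells. They were Abca1, the cholesterol exporter, with a log2 fold change of 1.96 ± 0.17 in fresh cells (edgeR adjusted p = 0.0196), and Nr1h3, which encodes the oxysterol receptor LXRα, with 1.34 ± 0.11 (adjusted p = 0.0196). Pparg, a nuclear receptor that controls Fabp4, differed by 0.05 ± 0.41 (edgeR adjusted p = 0.96). The list of other lipid-associated macrophage genes had 3 of 18 called in fresh and 4 of 17 in cryopreserved cells, all higher. Mmp12 was at 0.835 and 2.22 in CSAA and 53.4 and 94.5 in CDAA rats (log2 fold change 5.62 ± 0.49, edgeR adjusted p = 0.0196), and the collagenase Mmp14 and the phospholipase D family member Pld3 were called too. Of 13 Kupffer identity genes, 3 were called higher in fresh cells, the folate receptor Folr2 with 2.53 ± 0.22 and the complement genes C1qc with 1.30 ± 0.16 and C1qb with 1.22 ± 0.13 (edgeR adjusted p = 0.0196, 0.0379 and 0.025). The log2 fold change was above 0 for 11 of the 13 and below 0 for Cd163 (-0.18 ± 0.72) and Slc40a1 (-0.29 ± 0.21). In cryopreserved cells 2 of 12 were called higher, Folr2 with 1.95 ± 0.27 and Hmox1 with 1.58 ± 0.19 (edgeR adjusted p = 0.0472 and 0.0306). In cryopreserved against fresh cells, where 0.800% of all genes were called, 1 gene of these lists was called. It was Clu, a lipoprotein that binds Trem2, with a log2 fold change of -2.05 ± 0.55 (edgeR adjusted p = 0.0473), which DESeq2 did not call. Clu went from 9.09 to 0.752 CPM in NC1 and from 2.22 to 0.0598 CPM in NC2, but from 1.36 to 1.08 CPM in PC1 and from 1.38 to 0.622 CPM in PC2.

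By Pearson's r of log2(CPM + 1) over 56 profiles of 7 gates in 8 libraries, the gene most like Spp1 among 8230 genes, leaving out the 10 genes described here and the 7 gate genes, was Mmp12 (r = 0.96), followed by RGD1562667 (0.90), Apoe (0.88), Actb (0.86) and RGD1561778 (0.85). With the same genes left out, these 5 were also most like Trem2, with Mmp12 first (r = 0.88) and Apoe last (0.79). Among the genes described here, Fabp4 (0.93) and Trem2 (0.90) were most like Spp1, both above RGD1562667, and Cd9 (0.48) and Cd36 (0.28) least. Spp1 (0.90) was more like Trem2 than Mmp12 was, and Lpl (0.84), Fabp4 (0.81) and Gpnmb (0.81) were above Apoe. Profiles of both diets entered r, so genes that differ alike between diets score high whatever their lineages, and r within a diet was not taken. Profiles of 1 library share its depth and its free RNA, so these are descriptions.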

How the data were processed

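Chromium 3′ v2 libraries of liver immune cells of 4 rats, fresh and cryopreserved, were analysed. The deposited matrices hold UMI counts per gene and barcode, without normalization or selection of cells. The authors had made them with Cell Ranger 2.1.1 on the rat build Rnor6.0. The submitters' processing notes also name STAR and bcl2fastq 2.17.1.14, without their role for these libraries. Barcodes with at least 500 UMIs were kept, no doublet caller was run, and UMIs were summed per library or gate. The test was edgeR's quasi-likelihood F-test on these sums (edgeR 4.0.16 in R 4.3.3, TMM, filterByExpr), with the rat as a block where fresh and cryopreserved cells or gates were compared, since the labels name the same rats. Deviations of a rat from its diet mean correlated between its libraries (r = 0.465 and 0.515 over 11104 genes). DESeq2 1.42.0 was an alternative. The fits were tested on simulated data. The members and lists were chosen with earlier results of these data known. All 10 genes were named, and from each list up to 3 called genes with the largest change that did not overlap between diets or changed alike in every rat; others named in the text were chosen after their values were seen. P-values measure the spread between these rats only. Intervals, limits and floors cover counting error. Other steps used scipy 1.17.1 and pandas 2.3.3 in Python 3.11.15.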

Additional observations from a re-analysis of the deposited data

Results flagged for a closer look

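Droplets without a cell, which enter no comparison, held all 10 genes at higher levels in each CDAA than in any CSAA library. Other genes that separate the diets in these droplets were not counted, so this is not read as particular to the 10. The lowest CDAA level was 177 CPM for Spp1, 43.0 for Trem2, 303 for Gpnmb, 192 for Cd9, 111 for Lpl, 102 for Fabp5, 408 for Lgals3, 393 for Cd63, 8.91 for Cd36 and 705 for Fabp4. The highest CSAA level of the same genes was 13.3, 5.29, 39.0, 155, 10.2, 37.3, 169, 89.8, 5.44 and 56.8. For Lgals3, the change after cryopreservation of PC1 (0.24 on the log2 scale) stood apart from -0.08, -0.11 and -0.14 in the other 3 rats, a gap of 0.84 of the whole range. About 1 in 20 such groups of 4 values is set apart by chance.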

How the results depend on the processing

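The count of 8 genes called between diets was 8 to 9 in whole libraries under the other normalization, test, filter and barcode choices, and 8 in fresh and 9 in cryopreserved cells with the animal number as a replicate block. The animal numbers do not pair rats across diets (correlation of deviations -0.003 in fresh and 0.09 in cryopreserved libraries). Leaving out 1 rat gave 5 to 10 in fresh and 3 to 9 in cryopreserved cells. Between cryopreserved and fresh cells the count was 0 throughout, also with no replicate block. The sign of the cryopreservation change turned for Spp1 (-0.55 by DESeq2, -0.030 without barcodes of at least 10 Spp1 UMIs, -0.12 to 0.075 leaving out a rat) and for Trem2 (-0.046, -0.019 and -0.36 to 0.31). For shares the difference turned to -0.177 as observed and -0.0499 in 2000 UMIs for Spp1, and to -0.0121 as observed for Trem2, with -0.259 to 0.346 leaving out a rat.

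In gates the counts moved more. Between diets, Clec4f barcodes gave 0 with at least 2 UMIs of the gate gene, 9 by the gate gene with most UMIs and 8 with both libraries of a rat summed (range leaving out a rat, 3 to 8). Vcan barcodes gave 6 by the gate gene with most UMIs, 3 in cryopreserved libraries, 4 with libraries summed, 5 with the replicate block and 0 to 6 leaving out a rat. Between Clec4f and Clec4a3 barcodes the count of 4 became 2 with at least 2 UMIs, 1 by most UMIs, 1 in cryopreserved libraries, 0 with no replicate block and 1 to 4 leaving out a rat. There Spp1 turned to -0.59 with at least 2 UMIs, -0.54 by most UMIs and -0.089 to 1.69 leaving out a rat, and Fabp4 to -0.16 and Fabp5 to -0.39 in cryopreserved libraries. Between Clec4f and Vcan barcodes the count of 5 became 3 with at least 2 UMIs, 2 in cryopreserved libraries and 0 with no replicate block, and Lpl turned to -0.47 in cryopreserved libraries. Between Clec4a3 and Vcan barcodes the count of 2 became 4 by most UMIs, 1 in cryopreserved libraries, 0 with no replicate block and 1 to 2 leaving out a rat. The cause was not tested. Depth limits the gates, and the CSAA counts of Spp1 limit its fold.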

Other observations

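Barcodes with at least 10 Spp1 UMIs differed among the CDAA libraries in Vsig4, picked from the Kupffer cell markers, and in a chemokine. Both are given as values without a test. Vsig4, a complement receptor of Kupffer cells, was at 99.0 and 155 CPM in fresh and cryopreserved cells of PC1 and at 27.0 and 3.19 in those of PC2. Clec4f, another Kupffer marker, was present in 9 of 30 fresh and 19 of 46 cryopreserved barcodes of PC1. In PC2 it was present in 26 of 52 and 6 of 46, so in fresh cells it went the other way. The monocyte chemoattractant Ccl7 was 31.9-fold and 19.7-fold above the remaining barcodes in PC1, and 4.79-fold and 5.03-fold in PC2. Spp1 and Trem2 were found together in 171 and 393 fresh and 237 and 293 cryopreserved barcodes of PC1 and PC2, and in 1 barcode of all CSAA libraries. If the genes were unrelated, 111 and 283 fresh and 149 and 212 cryopreserved barcodes would be expected. Barcodes with both in CDAA libraries had median depths of 9547 to 10664 UMIs. The part of depth and of free RNA in these numbers was not tested.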
